A study of Mus musculus with 6 samples.

Results

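L1MdA_I to L1MdA_VII are the A subfamilies of LINE1, the main autonomous retrotransposon of the mouse genome, and L1_MM is a further LINE1 family of the mouse whose name gives no A subfamily. These families were found by their exact names in a deposited table of read counts and are 8 of its 363 repeat families. RNA-seq was performed on testes of wild-type mice and of mice homozygous for the Spocd1 ΔSPIN1 allele (genotype Spocd1 dSpin/dSpin in the labels), with 3 libraries of each genotype. All mice were at postnatal day 20 and on a mixed B6CBAF1/Crl and C57BL/6N background, and the labels name no treatment. Each library was made from total RNA of 1 testis, depleted of ribosomal RNA. The Spocd1 ΔSPIN1 allele replaces residues of SPOCD1 by alanine to disrupt its binding to SPIN1, and it descends from a single founder. Because whole testis was used, a difference in the number of cells that express a family and a difference in its RNA per cell cannot be told apart. The table lists repeat families and no genes, so the labelled tissue and genotype are taken from the labels alone. Summed over all families, the libraries held 416517, 369598 and 499166 counts in wild-type replicates 1, 2 and 3 and 842018, 1013224 and 918487 counts in Spocd1 ΔSPIN1 replicates 1, 2 and 3.

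A full-length LINE1 element has a 5′ untranslated region that acts as its promoter, followed by ORF1, which encodes an RNA-binding protein, and ORF2, which encodes an endonuclease and reverse transcriptase. In the mouse, the promoter is built of repeated monomers, and the monomer type sets the A, Tf, Gf and F subfamilies apart. Within the A subfamilies the roman numerals run broadly from younger to older elements. The male germ line erases and rebuilds its DNA methylation before birth, and the silencing of LINE1 promoters at that stage depends on small RNAs of the piRNA class and on nuclear factors that include SPOCD1. The comparison of these genotypes addresses how the RNA of LINE1 families differs when SPOCD1 cannot bind SPIN1.

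Among the libraries, Spocd1 ΔSPIN1 replicate 1 stood apart. A chi-square of counts was computed for pairs of libraries, over the families of the table that reached a minimum summed count in the pair. Per degree of freedom, it was 417 between Spocd1 ΔSPIN1 replicates 1 and 2, 360 between replicates 1 and 3, and 14.5 between replicates 2 and 3. The wild-type pairs gave 10.5, 11.8 and 14.5. When the 8 families were left out, the values of the pairs with Spocd1 ΔSPIN1 replicate 1 were 75.3 and 48.7, and that of replicates 2 and 3 was 14.2. The calls and fold changes of edgeR with Bonferroni adjustment, for TMM and for total counts, and the ratios between subfamilies are therefore given with all 6 libraries and also without that library. Calls with other tools, adjustments or scalings are given with all 6 libraries only. No batch or date is given in the labels, and the total count of replicate 1 was 842018, the lowest of its genotype. That total covers repeat families only and includes the 8 families. The summed count of families not named L1 or Lx was 332604, 319004 and 278939 in Spocd1 ΔSPIN1 replicates 1, 2 and 3, so by it replicate 1 was the highest. The part of depth in the difference between libraries was not tested.

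Levels are given as normalized CPM, edgeR's counts relative to library size, after scaling with TMM (trimmed mean of M-values). TMM assumes that most families do not change, and the choice of scaling moved the fold changes here. LINE1 families took 45.3%, 42.5% and 46.9% of the counts in wild type and 60.5%, 68.5% and 69.6% in Spocd1 ΔSPIN1 replicates 1, 2 and 3. Total counts were also higher in every Spocd1 ΔSPIN1 library than in any wild-type library. Over the 292 families tested, TMM gave a median log2 fold change of −0.039, and scaling by total counts gave −1.05. Fold changes are relative to the former unless total counts are named.

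L1MdA_I and L1_MM had the largest differences between the genotypes among the 8 families. For L1MdA_I, the normalized CPM was 10260, 9889 and 10493 in wild-type replicates 1, 2 and 3 and 29929, 122947 and 125796 in Spocd1 ΔSPIN1 replicates 1, 2 and 3. L1_MM had 8895, 8831 and 8925 CPM in wild type, against 25199, 96108 and 97814 CPM in Spocd1 ΔSPIN1 mice. The genotypes did not overlap in either family, and replicate 1 was far below the other Spocd1 ΔSPIN1 libraries in both. Mean levels of L1MdA_I were 10214 ± 305 and 92891 ± 54545 CPM in wild-type and Spocd1 ΔSPIN1 mice, and those of L1_MM were 8884 ± 48.4 and 73040 ± 41441 CPM (SD, n = 3 libraries each). L1MdA_I differed by 3.18 on the log2 scale (standard error, SE, 0.50), with a Bonferroni-adjusted p of 0.0693 in edgeR's quasi-likelihood test. L1_MM differed by 3.04 (SE 0.47), and the Bonferroni-adjusted p in the same edgeR test was 0.0653. So neither passed the threshold of 0.05, although all 3 Spocd1 ΔSPIN1 libraries were higher than every wild-type library.

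L1MdA_II and L1MdA_III came next. The normalized CPM of L1MdA_II was 10971, 11010 and 11217 in wild type and 25128, 77505 and 80038 in Spocd1 ΔSPIN1 replicates 1, 2 and 3. That of L1MdA_III was 12433, 12387 and 12624 in wild type and 26381, 55066 and 57293 in Spocd1 ΔSPIN1 mice. Again the genotypes were apart and replicate 1 was the lowest Spocd1 ΔSPIN1 library. The log2 fold change of L1MdA_II, 2.46 (SE 0.40), missed the threshold, and its Bonferroni-adjusted p was 0.0886 in edgeR's quasi-likelihood test. L1MdA_III, with means of 12481 ± 126 and 46247 ± 17240 CPM (SD, n = 3 libraries each), rose by 1.89 on the log2 scale (SE 0.27, Bonferroni-adjusted p = 0.0426 in the same edgeR test). With total counts for scaling and all 6 libraries its log2 fold change was 0.86 and no longer passed.

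L1MdA_IV and L1MdA_V had smaller changes and a smaller spread. L1MdA_IV had 10059, 10101 and 10417 CPM in wild type, against 18262, 24565 and 25157 CPM in Spocd1 ΔSPIN1 replicates 1, 2 and 3. In L1MdA_V, the values were 6728, 7189 and 7088 CPM in wild type, against 11020, 14497 and 14581 CPM in Spocd1 ΔSPIN1 mice. Every Spocd1 ΔSPIN1 library was above every wild-type library in these families as well. From a wild-type mean of 10192 ± 196 CPM, L1MdA_IV rose to 22661 ± 3821 CPM (SD, n = 3 libraries each), which is 1.15 on the log2 scale (SE 0.13, Bonferroni-adjusted p = 0.00941 in edgeR's quasi-likelihood test). L1MdA_V rose by 0.93 (SE 0.12, Bonferroni-adjusted p = 0.0224 in the same edgeR test). With total counts for scaling neither passed, and the log2 fold change was 0.13 for L1MdA_IV and −0.087 for L1MdA_V (0.23 and 0.0035 without Spocd1 ΔSPIN1 replicate 1).

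L1MdA_VI and L1MdA_VII had the smallest differences. For L1MdA_VI the normalized CPM was 11541, 11734 and 11973 in wild type and 13439, 15301 and 15759 in Spocd1 ΔSPIN1 replicates 1, 2 and 3. L1MdA_VII had 10546, 10563 and 10693 CPM in wild type, against 12765, 16840 and 17163 CPM in Spocd1 ΔSPIN1 mice. With TMM the genotypes did not overlap in either family, and the lowest Spocd1 ΔSPIN1 library was 1.12 times the highest wild-type library in L1MdA_VI and 1.19 times in L1MdA_VII. The log2 fold change of L1MdA_VI was 0.34 (SE 0.093) and that of L1MdA_VII 0.56 (SE 0.12). Their Bonferroni-adjusted p-values in edgeR's quasi-likelihood test were 1 and 0.673, so neither passed. With total counts for scaling the direction of both was the opposite, with log2 fold changes of −0.68 and −0.46 (−0.65 and −0.37 without replicate 1).

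**Figure D1:**
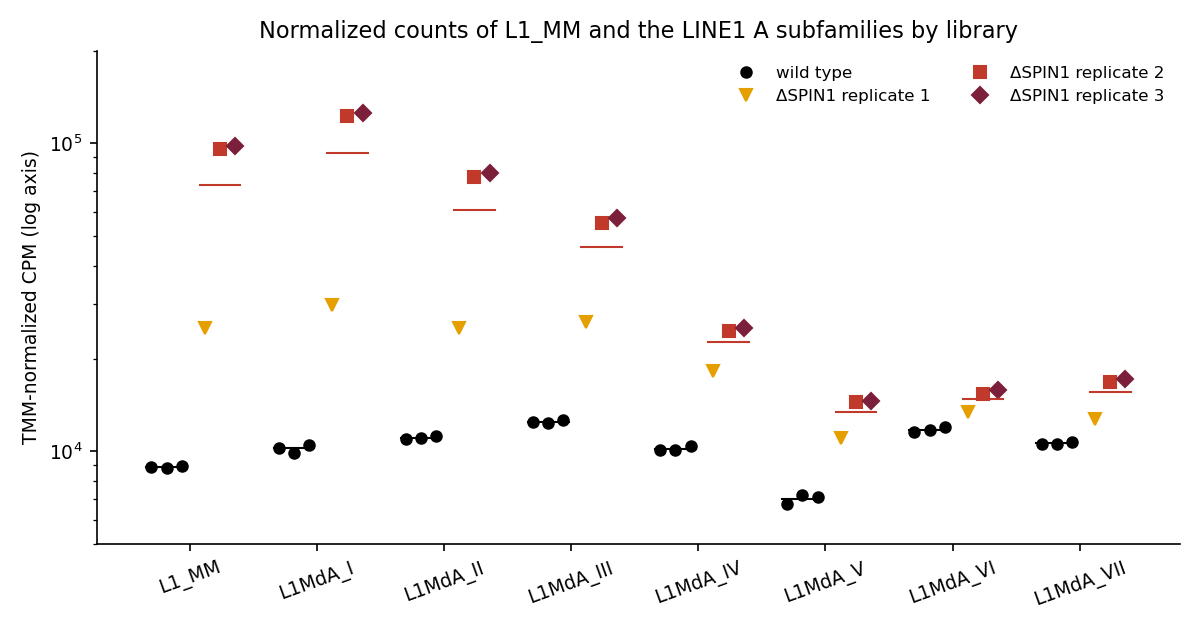
Normalized CPM (TMM, log axis) of L1_MM and the A subfamilies in each library, with wild-type libraries as black circles, Spocd1 ΔSPIN1 replicates 1, 2 and 3 as triangles, squares and diamonds, and group means as lines. In every family the 3 Spocd1 ΔSPIN1 libraries were above the wild-type libraries with TMM (not with total counts for L1MdA_IV, L1MdA_V, L1MdA_VI and L1MdA_VII), and replicate 1 was the lowest of them, at 29929 against 122947 and 125796 CPM for L1MdA_I.

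With p-values adjusted over the 292 families tested, L1MdA_III, L1MdA_IV and L1MdA_V, or 3 of the 8 families, were called higher in Spocd1 ΔSPIN1 mice (with total counts for scaling and all 6 libraries none of the 3 was called higher, and the direction of L1MdA_V was the opposite). The same edgeR test called 5.48% of all tested families higher. With TMM, all 3 Spocd1 ΔSPIN1 libraries were above all 3 wild-type libraries in 8 of the 8 families, against 20.9% of all tested families. The same held for 6 of the 6 Tf and Gf families and 7 of the 9 F and N families. That edgeR test called 3 of 3 Tf, 3 of 3 Gf and 1 of 9 F and N families higher. The median log2 fold change was 1.52 for the 8 families and −0.039 for all tested families, and with total counts for scaling these medians were 0.50 and −1.05. With TMM the median of the Tf and Gf families was 2.63. In the numerals from I to V the fold changes became smaller step by step, and L1MdA_VI had a smaller one than L1MdA_VII. Among the 8 families, those with the largest fold changes also had the largest standard errors, so L1MdA_IV with 1.15 passed while L1MdA_I with 3.18 did not.

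Calls depended on which library was in the fit. Without Spocd1 ΔSPIN1 replicate 1, 8 of the 8 families passed and were higher, against 7.41% of all families tested in that fit. L1MdA_I was then higher by 3.60 on the log2 scale (SE 0.040, Bonferroni-adjusted p = 1.64e-09 in edgeR's quasi-likelihood test). Over the 15 alternatives run, the adjusted p of L1MdA_I (Bonferroni, or Benjamini-Hochberg in a single alternative) was between 7.15e-11 and 0.596 in edgeR or DESeq2. L1_MM had 3.44 (SE 0.035), L1MdA_II 2.82 (SE 0.034) and L1MdA_III 2.16 (SE 0.036) as log2 fold changes without replicate 1. Those of L1MdA_IV, L1MdA_V, L1MdA_VI and L1MdA_VII were 1.28, 1.04, 0.39 and 0.67. Without Spocd1 ΔSPIN1 replicate 2, or without replicate 3, 1 of the 8 families passed and was higher, in each case L1MdA_IV, against 4.36% and 3.69% of all families tested in these fits. Without wild-type replicate 1, 2 or 3, 0 of the 8 families passed in edgeR, where 2.25%, 2.54% and 2.56% of all tested families were called higher. All 8 had an unadjusted p under 0.05 in each of these edgeR fits, as had 119 of 311, 114 of 315 and 108 of 312 tested families in either direction, and the Wald test of DESeq2 with all 6 libraries called 7 of the 8.

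The calls also differed between tools, adjustments and scalings. With the Wald test of DESeq2 and Bonferroni adjustment, 7 of the 8 families were called higher, all but L1MdA_VI, against 10.3% of all tested families. With Benjamini-Hochberg adjustment in edgeR, 8 of the 8 families were called higher, against 15.4% of all tested families. When TMM factors came from families outside LINE1, edgeR called 4 of the 8 higher, against 7.53% of all tested families. L1_MM then passed (Bonferroni-adjusted p = 0.0492 in edgeR's quasi-likelihood test), and L1MdA_I did not (0.0528 in the same test). Total counts for scaling gave 0 of the 8 families called higher in edgeR, where 1.37% of all tested families were, and without adjustment 4 of the 8 were higher and 2 lower at p under 0.05 in that edgeR fit, where 266 of the 292 tested families had such a p in either direction. L1MdA_VI was then the 1 of the 8 families called lower, and 57.5% of all tested families were called lower. L1MdA_I, L1_MM, L1MdA_II, L1MdA_III and L1MdA_IV kept positive log2 fold changes with total counts, at 2.14, 2.0, 1.42, 0.86 and 0.13. Total counts without Spocd1 ΔSPIN1 replicate 1, a fit chosen after seeing the data, gave 2.55, 2.4, 1.78, 1.12 and 0.23. The first 4 of these were called higher in edgeR, against 3.70% of all families tested in that fit, and L1MdA_VI was called lower, as were 190 of the 297 families.

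**Figure D2:**
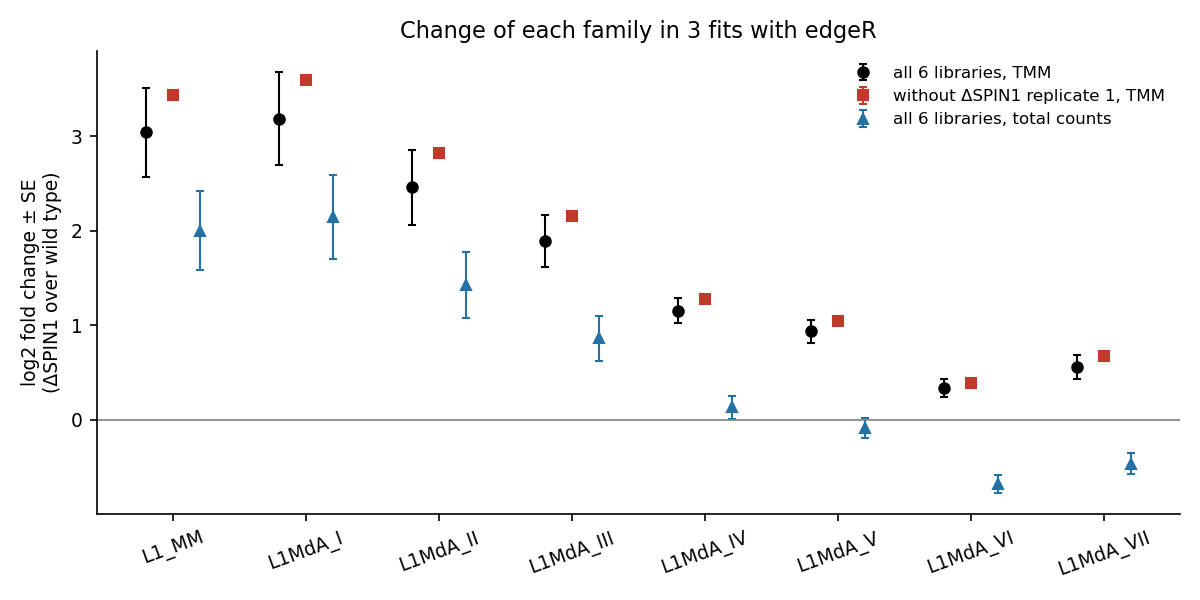
Log2 fold change of each family (Spocd1 ΔSPIN1 over wild type) with its standard error in edgeR, for all 6 libraries with TMM (circles), without Spocd1 ΔSPIN1 replicate 1 (squares) and for all 6 libraries scaled by total counts (triangles). L1MdA_I had 3.18, 3.60 and 2.14, and L1MdA_V, L1MdA_VI and L1MdA_VII were higher with TMM but below 0 with total counts.

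Shares of all counts show the same data relative to the total of each library. L1MdA_I took 1.47%, 1.35% and 1.53% of the counts in wild type and 2.22%, 8.68% and 8.38% in Spocd1 ΔSPIN1 replicates 1, 2 and 3. L1MdA_VI took 1.66%, 1.60% and 1.75% in wild type and 0.995%, 1.08% and 1.05% in Spocd1 ΔSPIN1 mice. So L1MdA_I was above wild type in every Spocd1 ΔSPIN1 library on this scale, and L1MdA_VI was below it in every one. By share of counts, 4 of the 8 families had all Spocd1 ΔSPIN1 libraries above all wild-type libraries, against 4.79% of all tested families. These were L1MdA_I, L1_MM, L1MdA_II and L1MdA_III. On this scale, 6 of the 6 Tf and Gf families and 0 of the 9 F and N families were apart in that direction. The share of L1MdA_IV was 1.44%, 1.38% and 1.52% in wild type and 1.35%, 1.73% and 1.68% in Spocd1 ΔSPIN1 mice, so that replicate 1 was below all wild-type libraries and replicates 2 and 3 above them. Together the 8 families took 11.7%, 11.2% and 12.2% of the counts in wild type and 12.0%, 29.8% and 28.9% in Spocd1 ΔSPIN1 mice. In replicate 1, their summed share (95% Wilson interval 11.9% to 12.1%) was thus between those of wild-type replicates 1 and 3. With TMM, their summed CPM in replicate 1 was 162122, above the wild-type mean of 82189. A share also depends on the other families. The Tf and Gf families took 8.32%, 8.03% and 8.76% of the counts in wild type and 34.2%, 24.2% and 26.5% in Spocd1 ΔSPIN1 replicates 1, 2 and 3. The intervals of the summed share were at most 0.203 percentage points wide and cover counting error only, since reads from PCR copies of a molecule are not independent.

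Set against the summed count of the 312 families not named L1 or Lx, L1_MM and L1MdA_I to L1MdA_V, or 6 of the 8 families, were higher in every Spocd1 ΔSPIN1 library than in any wild-type library, as were 9.25% of all tested families. The log2 ratio of L1MdA_I to these families was −5.22, −5.41 and −5.12 in wild type and −4.16, −1.86 and −1.86 in Spocd1 ΔSPIN1 replicates 1, 2 and 3. That of L1MdA_V was −5.82, −5.87 and −5.68 in wild type and −5.60, −4.94 and −4.97 in Spocd1 ΔSPIN1 mice. Both were apart between the genotypes. L1MdA_VI had −5.05, −5.16 and −4.93 in wild type and −5.31, −4.87 and −4.85 in Spocd1 ΔSPIN1 mice, and L1MdA_VII −5.18, −5.31 and −5.09 against −5.39, −4.73 and −4.73. In these last families, Spocd1 ΔSPIN1 replicate 1 was below every wild-type library and replicates 2 and 3 were above, so the direction in replicate 1 depended on what the count was set against. The 312 families were not a constant reference. With TMM, their summed CPM was 381103, 420307 and 363800 in wild type. It was 533695, 446079 and 455867 in Spocd1 ΔSPIN1 replicates 1, 2 and 3, highest in replicate 1.

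Whether neighbouring subfamilies changed by different amounts was tested on ratios of their counts within each library, into which no scaling enters. The log2 ratio of L1MdA_I to L1MdA_VII was −0.040, −0.095 and −0.027 in wild type and 1.23, 2.87 and 2.87 in Spocd1 ΔSPIN1 replicates 1, 2 and 3. The genotypes did not overlap, and the difference of 2.38 had an exact two-sided permutation p of 0.1, the smallest that 3 libraries against 3 allow. Between neighbours in number, the log2 ratio was higher in Spocd1 ΔSPIN1 mice by 0.64 for L1MdA_I to L1MdA_II, 0.48 for L1MdA_II to L1MdA_III and 0.67 for L1MdA_III to L1MdA_IV. It was higher by 0.22 for L1MdA_IV to L1MdA_V and by 0.59 for L1MdA_V to L1MdA_VI. The order of the numerals was broken at L1MdA_VI to L1MdA_VII, with a difference of −0.21. For L1_MM to L1MdA_I the difference was −0.12. Without Spocd1 ΔSPIN1 replicate 1 the difference for L1MdA_I to L1MdA_VII was 2.92, and those of the neighbours, in the order above, were 0.78, 0.66, 0.88, 0.23, 0.65, −0.28 and −0.16. In all 7 neighbouring pairs the genotypes were apart, and each exact two-sided permutation test gave p = 0.1. None of these differences could pass 0.05 with that test and 3 libraries of each genotype. Neighbouring pairs have a family in common, so they are not 7 separate results. How often pairs of other tested families were apart was not computed, so the count stands without a comparison.

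The make-up of the summed count in Spocd1 ΔSPIN1 mice was shifted towards L1_MM and the low numerals I and II. L1MdA_I made up 12.6%, 12.1% and 12.6% of the summed count of the 8 families in wild type and 18.5%, 29.1% and 29.0% in Spocd1 ΔSPIN1 replicates 1, 2 and 3. L1MdA_VI went the other way, with 14.2%, 14.4% and 14.4% in wild type and 8.29%, 3.62% and 3.63% in Spocd1 ΔSPIN1 mice. L1MdA_III was 15.3%, 15.2% and 15.1% in wild type and 16.3%, 13.0% and 13.2% in Spocd1 ΔSPIN1 mice, so its libraries overlapped in range. In all 3 families, replicate 1 was on the wild-type side of replicates 2 and 3 or, for L1MdA_III, above wild type while these were below.

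**Figure D3:**
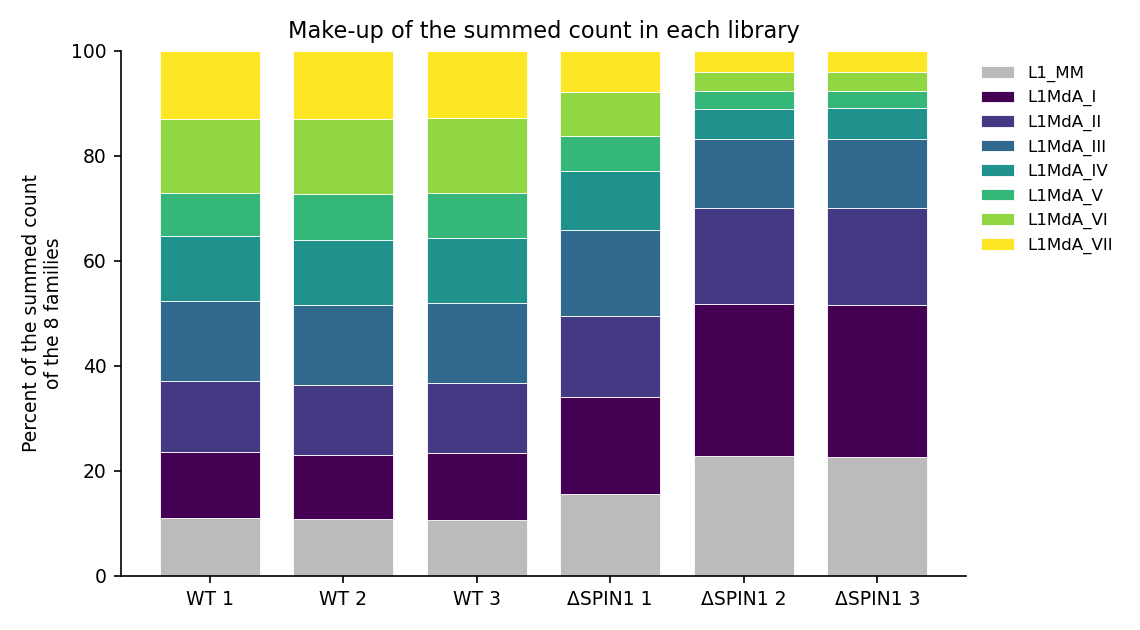
Percent of the summed count of the 8 families taken by each family in each library, as stacked bars. L1MdA_I took between 12.1% and 12.6% in wild type and 18.5%, 29.1% and 29.0% in Spocd1 ΔSPIN1 replicates 1, 2 and 3.

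Levels of different families were compared per length, as normalized CPM per kilobase of the sequence that stands for each family. In wild type the 8 families were within 1.62-fold of each other by their means, from 1128 ± 39.0 for L1MdA_V to 1832 ± 33.8 for L1MdA_VI (SD, n = 3). From high to low the order was L1MdA_VI, L1MdA_III, L1MdA_II, L1MdA_VII, L1MdA_IV, L1MdA_I, L1_MM and L1MdA_V. In this order L1MdA_VI and L1MdA_III overlapped in their libraries, as did L1MdA_VII and L1MdA_IV, while the other neighbours did not. In Spocd1 ΔSPIN1 mice the means ranged 6.57-fold, from 2154 ± 327 for L1MdA_V to 14152 ± 8310 for L1MdA_I (SD, n = 3), in the order L1MdA_I, L1_MM, L1MdA_II, L1MdA_III, L1MdA_IV, L1MdA_VII, L1MdA_VI and L1MdA_V. Only L1MdA_IV and L1MdA_VII were neighbours with no overlap in that order. Replicates 2 and 3 each had this order within the library. In replicate 1, L1MdA_II with 3973 was above L1_MM with 3939, and L1MdA_VI with 2096 was above L1MdA_VII with 2004. Within a single library, the highest of the 8 levels was 2.57 times the lowest in Spocd1 ΔSPIN1 replicate 1 and 8.02 and 8.16 times in replicates 2 and 3, against 1.58 to 1.67 times in the wild-type libraries.

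Among the 8 families, the Spocd1 ΔSPIN1 libraries differed most in those with the largest change. Relative to the wild-type mean, the normalized CPM of L1MdA_I was 2.93, 12.0 and 12.3 times as high in replicates 1, 2 and 3. L1_MM was 2.84, 10.8 and 11.0 times as high, L1MdA_II 2.27, 7.0 and 7.23 times, and L1MdA_III 2.11, 4.41 and 4.59 times. In replicate 1 these 4 families were thus close together, while in replicates 2 and 3 they were spread out. L1MdA_IV was 1.79, 2.41 and 2.47 times as high as the wild-type mean, and L1MdA_V 1.57, 2.07 and 2.08 times. L1MdA_VII with 1.20, 1.59 and 1.62 times and L1MdA_VI with 1.14, 1.30 and 1.34 times the wild-type mean had the lowest values. With TMM scaling, replicate 1 was below replicates 2 and 3 in all 8 families.

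On the log2 scale, replicate 1 minus the mean of replicates 2 and 3 was −2.05 for L1MdA_I, −1.94 for L1_MM, −1.65 for L1MdA_II and −1.09 for L1MdA_III. For the other A subfamilies the difference was between −0.44 and −0.21. Replicate 2 minus replicate 3 was between −0.057 for L1MdA_III and −0.0084 for L1MdA_V, with a median of −0.034 for the 8 families and −0.029 for all tested families. Over all 292 tested families the median difference of replicate 1 was 0.015, and 137 of them were lower in replicate 1. Ordered by this difference from the lowest, L1MdA_I, L1_MM and L1MdA_II took ranks 1, 2 and 3 and L1MdA_III rank 5. L1MdA_IV, L1MdA_VII, L1MdA_V and L1MdA_VI had ranks 26, 28, 30 and 53. The SD of log2 values among the Spocd1 ΔSPIN1 libraries was 1.19 for L1MdA_I, 1.12 for L1_MM, 0.95 for L1MdA_II and 0.63 for L1MdA_III, whereas the median over all tested families was 0.15. In wild type the median SD of the 8 families was 0.022, against 0.14 for all tested families. Other LINE1 groups were as close or nearly so, with 0.024 for the F and N families and 0.032 for the Tf and Gf families. Counting error at the lowest count of each of the 8 families was between 1.26% and 1.66%.

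**Figure D4:**
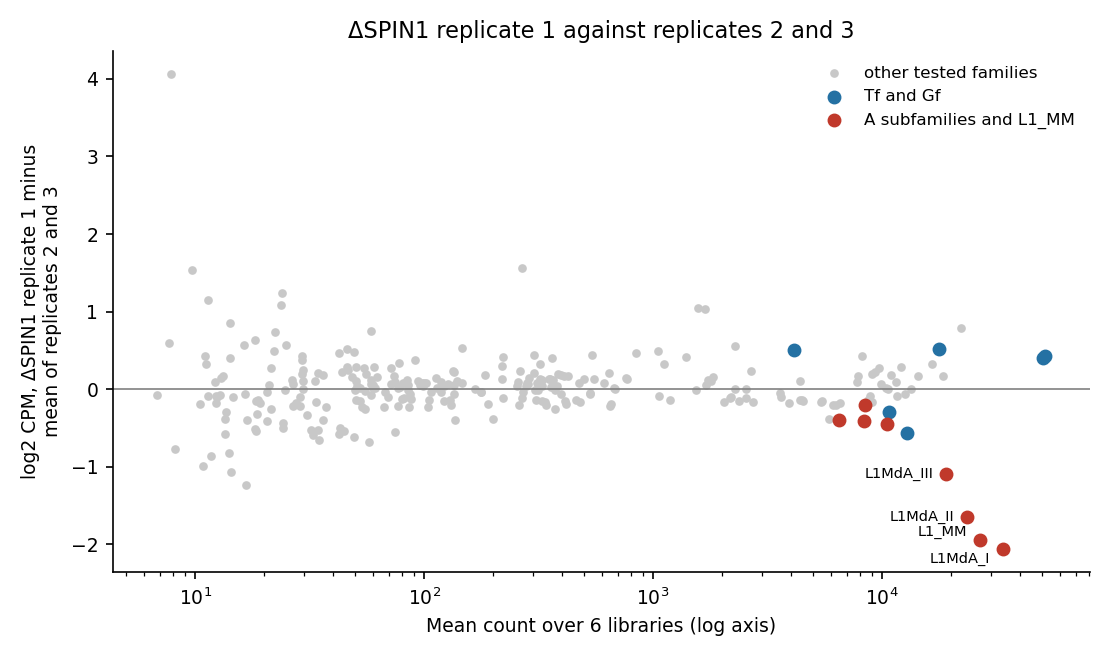
Difference in log2 normalized CPM between Spocd1 ΔSPIN1 replicate 1 and the mean of replicates 2 and 3, against the mean count over 6 libraries (log axis), with 1 point for each of the 292 tested families. L1MdA_I, L1_MM, L1MdA_II and L1MdA_III are at −2.05, −1.94, −1.65 and −1.09, and the median of all families was 0.015.

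The low values of replicate 1 were not shared by all young LINE1 subfamilies. L1MdTf_I, of the Tf subfamilies, was 14.3, 9.74 and 11.6 times the wild-type mean in Spocd1 ΔSPIN1 replicates 1, 2 and 3, and L1Md_Gf_5end, of the Gf subfamilies, 18.3, 11.6 and 14.3 times. In these families replicate 1 was the highest library. L1MdGf_II with 2.45, 3.49 and 3.71 times and L1MdGf_I with 2.04, 2.49 and 2.53 times the wild-type mean had their lowest Spocd1 ΔSPIN1 value in replicate 1, like the A subfamilies. Of the A subfamilies and L1_MM, 8 of 8 were lower in replicate 1 than in the mean of replicates 2 and 3, with a median difference of −0.77. Of the 6 Tf and Gf families 2 were lower, with a median of 0.42. Lower values in replicate 1 were also common in other LINE1 families, with 7 of 9 F and N families (median −0.14) and 21 of 23 older families (median −0.15), against 99 of 246 families outside LINE1 (median 0.058). Among families outside LINE1, chosen after their values were seen, MMERVK10C and IAPEY5_I were higher in replicate 1 than in the mean of replicates 2 and 3, by 0.79 and 1.04 on the log2 scale. The part of these values in the low level of the A subfamilies was not tested.

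**Figure D5:**
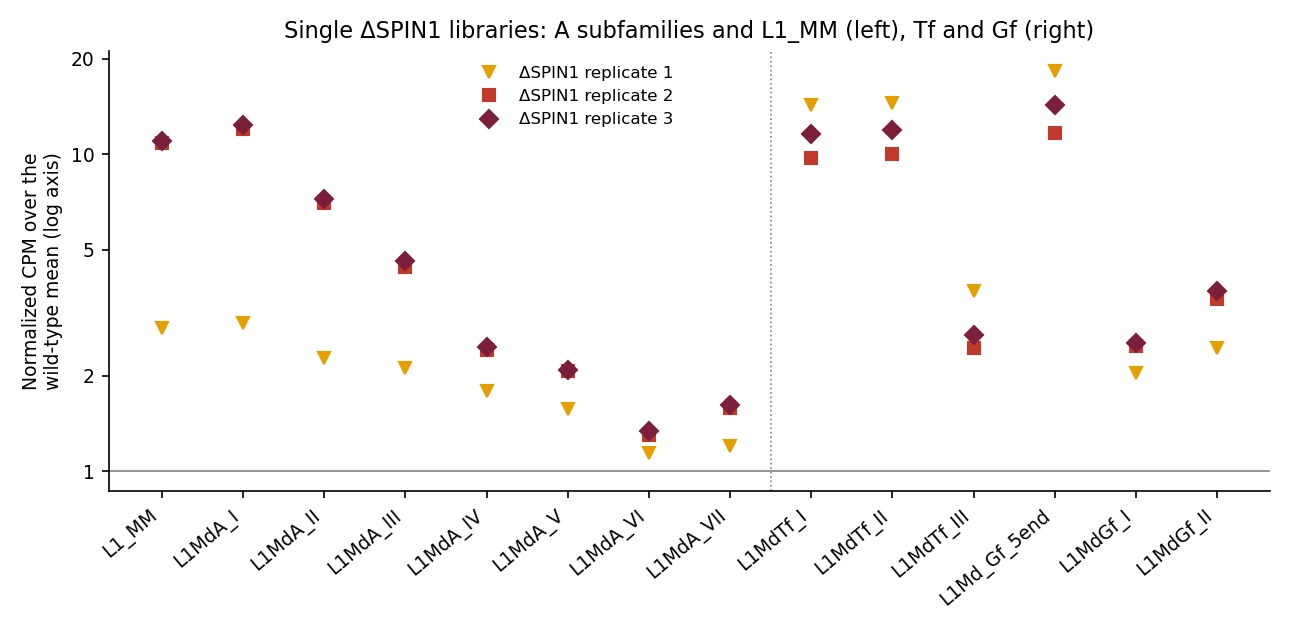
Normalized CPM of each Spocd1 ΔSPIN1 library relative to the wild-type mean (log axis) for L1_MM and the A subfamilies (left of the dotted line) and for the Tf and Gf families (right). Replicate 1 (triangles) was lowest for L1MdA_I at 2.93 against 12.0 and 12.3, and highest for L1MdTf_I at 14.3 against 9.74 and 11.6; with total counts for scaling, L1MdA_V, L1MdA_VI and L1MdA_VII had means below wild type.

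The contrast between A and Tf was also present in counts within a library. The count of L1MdA_I was 0.842, 0.792 and 0.817 times that of L1MdTf_I in wild type and 0.168, 1.01 and 0.868 times in Spocd1 ΔSPIN1 replicates 1, 2 and 3. So replicate 1 was below all wild-type libraries, and replicates 2 and 3 were above them. For the 8 families together, the log2 ratio of their summed count to that of the 6 Tf and Gf families was 0.49, 0.48 and 0.48 in wild type and −1.51, 0.30 and 0.13 in Spocd1 ΔSPIN1 mice. Here all Spocd1 ΔSPIN1 libraries were below wild type, and the difference between the means was −0.84 with all libraries and −0.27 without replicate 1. Of all LINE1 counts, the 8 families took 25.8%, 26.3% and 26.0% in wild type and 19.8%, 43.6% and 41.5% in Spocd1 ΔSPIN1 mice.

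With TMM, the excess of CPM over the wild-type mean, set against that of L1MdA_I in the same library, also differed between libraries. The excess of L1MdA_III was 70.5% of that of L1MdA_I in replicate 1 and 37.8% and 38.8% in replicates 2 and 3. By share of all counts, L1MdA_III had 1.95%, 3.89% and 3.82% in these libraries and a wild-type mean of 1.77%. On that scale its excess relative to L1MdA_I was lowest in replicate 1, the opposite order. With TMM, the percentages were 40.9%, 12.7% and 12.9% for L1MdA_IV and 8.57%, 3.15% and 3.47% for L1MdA_VI. By share of all counts, L1MdA_IV had no excess in replicate 1, with 1.35% against a wild-type mean of 1.45%. L1MdA_VI had none in any Spocd1 ΔSPIN1 library on that scale. L1_MM stayed closest to L1MdA_I, with 82.8%, 77.4% and 76.9%. Replicates 2 and 3 thus had like proportions in these families with TMM, and replicate 1 had others. For L1MdA_III and L1MdA_IV, whether the proportion was higher or lower in replicate 1 depended on the scaling.

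By the spread of the log2 ratio of counts over the 6 libraries, L1MdA_I was closest to L1_MM among the 8 families, with an SD of 0.081 and a count between 1.12 and 1.29 times that of L1_MM. Outside the 8 families, 283 families were compared. L1MdA_VI was closest to L1MdF_IV (SD 0.030), whose count was between 1.04 and 1.11 times its own, L1MdA_V to L1MdN_I (SD 0.036, 0.864 to 0.921 times) and L1MdA_IV to L1MdGf_I (SD 0.076, 0.961 to 1.12 times). L1MdA_III and L1MdA_II were closest to L1MdGf_II, with SDs of 0.21 and 0.52. For L1MdA_I and L1_MM the closest was also L1MdGf_II, with SDs of 0.88 and 0.80, so no family outside the 8 kept a near-constant ratio to either. L1MdA_VII was closest to IAP1-MM_LTR (SD 0.11), a family with 0.00743 to 0.0088 times its count. The rule for reads with matches in more than a single family is not given in the sources used here. The counts of families with like sequences may therefore share reads, and the 8 families are not independent measurements.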

How the data were processed

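Reads per repeat family were counted by the authors and deposited as raw counts in a single table of the 6 libraries, together with the length in bases of the sequence that stands for each family. The submitters' processing notes name cutadapt 1.18, Bowtie2 2.4.2 and build mm10, and the rule for reads matching several families and the strand setting are not given in the sources used here. Libraries were stranded, with 8 cycles of PCR. A row named for the aligner, with 0 counts, was left out. Columns were matched to samples by name.

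The deposited counts were analysed with edgeR 4.0.16 in R 4.3.3 (glmQLFit, glmQLFTest, two-sided), after filterByExpr by genotype, which left 292 of 363 families, with all 8 families among them, and 71 untested. TMM factors were used without a covariate. Bonferroni adjustment covered the 292 families, with a threshold of 0.05. Alternatives were the Wald test of DESeq2 1.42.0, its size factors, total counts, TMM without LINE1 families, other count filters, Benjamini-Hochberg adjustment, a replicate block, each library left out and, added after seeing the data, total counts without Spocd1 ΔSPIN1 replicate 1, and scipy 1.17.1 gave exact permutation tests of ratios within libraries. Named families were the 8, Tf and Gf families, the closest families by SD of the log2 count ratio, and MMERVK10C and IAPEY5_I, chosen after their values were seen. The families and groups were chosen with earlier results of these data known. The labels tie each library to 1 testis and name no mouse, so p-values measure the spread between these libraries.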

Additional observations from a re-analysis of the deposited data

How the results depend on the processing

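Of 120 fits of the 8 families under 15 alternatives, 74 kept direction and side of the threshold, 20 no longer passed, 21 newly passed and 5 reversed. These were L1MdA_V (−0.087), L1MdA_VI (−0.68) and L1MdA_VII (−0.46) with total counts, and L1MdA_VI (−0.65) and L1MdA_VII (−0.37) with total counts without Spocd1 ΔSPIN1 replicate 1, an alternative added after seeing the data. Total counts called 172 families, 4 higher and 168 lower, and 1 of the 8, against 24, 16, 8 and 3 with TMM. The added alternative called 201, 11, 190 and 5. The Wald test of DESeq2 called 47, 30, 17 and 7, and Benjamini-Hochberg adjustment in edgeR 92, 45, 47 and 8. Without a filter on low counts 6 of the 8 passed and were higher, against 21 of 359 families higher and 9 lower. The cause was not tested. Fits that each lacked 1 library, and so had fewer samples, called 14 to 28 families, 7 to 22 higher and 5 to 11 lower, and 0 to 8 of the 8. The summed share and the ratios within the 8 families, to Tf and Gf and to families outside LINE1 kept their direction in 68 values under alternatives (the block, which cannot move a difference of group means, not counted), but exact tests of 3 against 3 could not pass the threshold. Without Spocd1 ΔSPIN1 replicate 1, the difference of group means turned from −0.135 to 0.122 for the ratio of L1MdA_I to L1MdTf_I and from −0.0578 to 0.00275 percentage points for the share of L1MdA_V. Counting error was at most 1.66% for the 8 families.

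A block on the replicate number in edgeR left 14 families called, of which 8 were higher, and 0 of the 8 families (8 at an unadjusted p under 0.05 in edgeR, as were 117 of all 292, and 7 with DESeq2 and no block). Same-numbered libraries of the genotypes had correlations of 0.083, 0.0080 and −0.14 in their deviations from the group means, and not every library correlated best with its own number, so the numbers were not taken as pairs.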
